A study of Mus musculus with 16 samples.

Results

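The homeobox genes of the sine oculis family examined were Six2, Six3, Six4, Six5 and Six6, which are 5 of the 22232 protein-coding gene names in the GENCODE M1 annotation of the mouse genome (mm9). For each gene, peaks of chromatin immunoprecipitation followed by sequencing (ChIP-seq) were taken where they were centred in the promoter window, the 2500 bp to either side of each annotated protein-coding start, or where they overlapped the gene body by at least 1 bp. The series held 16 libraries, 1 per group. Of these, 10 had a peak list and 6 were inputs, not analysed here. The histone marks H2AK119ub1 and H3K27me3 were profiled in 8 lists, in wild type and PCGF5-depleted cells at the embryonic stem cell stage (ES) and in neural precursors at day 6 of differentiation (NPC), and Flag-PCGF5 was profiled in 2 lists, ES and NPC.

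All groups derived from 46C, a mouse ES line with a fluorescent reporter of neural fate. ES were grown on inactivated embryonic fibroblasts with leukemia inhibitory factor and the 2i inhibitors. NPC were made in suspension in serum replacement medium, with no sorting named for these libraries. The labels give the genotype of the PCGF5-depleted cells as shPCGF5, and the methods describe stable lines made with a lentiviral short hairpin RNA, in which some PCGF5 can remain. The Flag-PCGF5 groups carry Wild type as their genotype label and came from lines with a Flag tag knocked into Pcgf5. With 1 library per group there was no replicate error, so no difference between conditions was tested, and all differences below are differences between lists. Read totals were not given, and how deeply each library was sequenced is therefore unknown.

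The proteins of this family are transcription factors with a homeodomain and a second conserved domain, and they act with Eya coactivators and with Groucho corepressors. Six3 and Six6 are known for the development of the eye field and forebrain, Six2 keeps nephron progenitors of the kidney undifferentiated, and Six4 and Six5 act in muscle and other tissues. Polycomb repressive complexes silence many homeobox genes outside their tissue. Polycomb repressive complex 1 (PRC1) monoubiquitinates histone H2A, giving H2AK119ub1, and PCGF5 is a subunit of one of its variants. Polycomb repressive complex 2 trimethylates histone H3, giving H3K27me3. Both marks are often found over promoters rich in CG dinucleotides.

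Six3 and Six2 carried both marks in all 8 histone lists, Six6 and Six5 carried them in some lists, and Six4 had no histone peak in any list. Across the 8 histone lists the genes held 149 peaks. The genes lie on 3 chromosomes. Six3 (ENSMUSG00000038805.7, chr17:86012948-86031153, plus strand) and Six2 (ENSMUSG00000024134.9, chr17:86083608-86087594, minus strand) are neighbours that point towards each other across 52454 bp. Six6 (ENSMUSG00000021099.3, chr12:74040932-74045886, plus strand) and Six4 (ENSMUSG00000034460.6, chr12:74201246-74214401, minus strand) share chromosome 12. Six5 (ENSMUSG00000040841.4, chr7:19679893-19683694, plus strand) lies on chromosome 7. Overlapping genes share signal with them, since peaks carry no strand. An antisense transcript runs over the first part of Six3, and 4930447C04Rik, on the minus strand at Six6, shared 17 of the 21 Six6 peaks.

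The bases that the most lists had in common show where the marks recurred. Only Six3 had bases inside a peak in all 8 histone lists, 541 bp in total, in segments of 105, 83 and 353 bp. The first and second lie in the intron after the first coding exon. The third begins in that intron and runs past the end of the coding sequence in the next coding exon. Shown are the second segment and the first 298 bases of the third, up to the end of the coding sequence of that exon, together with the longest of the 3 segments shared by 7 lists at Six2, in its intron, and the segments shared by 5 lists in the Six6 intron and by 3 lists in the first coding exon of Six5. All are from the NCBIM37 assembly, 5′ to 3′ on the strand of the gene, with CG dinucleotides in capitals.
Six3 intron, plus strand, chr17:86022620-86022702: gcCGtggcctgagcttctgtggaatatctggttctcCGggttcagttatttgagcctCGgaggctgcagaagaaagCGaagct
Six3 intron and coding exon, plus strand, chr17:86022959-86023256: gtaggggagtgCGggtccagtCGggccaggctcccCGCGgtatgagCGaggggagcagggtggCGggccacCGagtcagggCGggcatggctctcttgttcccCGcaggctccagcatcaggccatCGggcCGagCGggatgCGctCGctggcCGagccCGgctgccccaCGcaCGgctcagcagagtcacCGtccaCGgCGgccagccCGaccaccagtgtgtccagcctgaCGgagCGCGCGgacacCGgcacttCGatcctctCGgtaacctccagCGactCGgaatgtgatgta
Six2 intron, minus strand, chr17:86086482-86086561: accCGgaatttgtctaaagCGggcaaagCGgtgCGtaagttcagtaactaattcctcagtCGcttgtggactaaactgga
Six6 intron, plus strand, chr12:74042150-74042213: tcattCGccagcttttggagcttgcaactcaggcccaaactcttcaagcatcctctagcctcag
Six5 coding exon, plus strand, chr7:19680147-19680276: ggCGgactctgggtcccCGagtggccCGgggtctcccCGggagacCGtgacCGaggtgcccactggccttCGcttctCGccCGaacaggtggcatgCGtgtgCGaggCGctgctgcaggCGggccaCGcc
The stretch over the Six3 intron and coding exon held 31 CG in 298 bases, or 10.4 per 100 bases, and the Six5 segment 14 in 130, or 10.8 per 100 bases. The segments shown that lie wholly in an intron held 4 in 83 bases at Six3, 5 in 80 at Six2 and 1 in 64 at Six6. The first Six3 segment, also intronic and not shown, held 1 in 105 bases. Of the other Six2 segments shared by 7 lists, not shown, the 79 bp of coding sequence held 9 CG and the 19 bp outside exons held 2. CG is its own reverse complement, so the count is the same on both strands.

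The region just upstream of a start site is shown for Six2, where a stretch around the start was covered in none of the 8 histone lists. It is also shown for Six4, where it formed part of the only Flag-PCGF5 peak at these genes. At Six2 no histone list covered chr17:86087354-86087819, a stretch of 466 bp that holds the start site at 86087594. It is the part common to the uncovered stretches of the 8 lists, which differed in extent. At Six4 the Flag-PCGF5 peak of NPC spanned chr12:74214158-74214656 and held both annotated starts, 74214401 and 74214232. Both sequences run from their outer edge to the base before the start site.
Six2 upstream, minus strand, chr17:86087595-86087819: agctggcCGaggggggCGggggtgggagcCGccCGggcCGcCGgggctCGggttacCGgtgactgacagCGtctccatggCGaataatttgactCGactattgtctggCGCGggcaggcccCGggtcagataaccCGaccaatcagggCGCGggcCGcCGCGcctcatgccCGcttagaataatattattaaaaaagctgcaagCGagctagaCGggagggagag
Six4 upstream, minus strand, chr12:74214402-74214656: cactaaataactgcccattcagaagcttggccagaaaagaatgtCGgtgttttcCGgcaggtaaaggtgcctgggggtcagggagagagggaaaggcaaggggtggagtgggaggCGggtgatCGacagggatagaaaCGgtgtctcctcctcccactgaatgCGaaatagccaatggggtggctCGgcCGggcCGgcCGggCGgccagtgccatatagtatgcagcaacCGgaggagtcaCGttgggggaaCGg
Six2 had 23 CG in these 225 bases and Six4 had 14 in 255. In a window of exactly 250 bases before each start, Six2 held 26 CG, and 13.4% of the 45968 windows before protein-coding starts held as many or more. The other starts held 16 (Six6), 10, 10 and 15 (Six3, from the most upstream start on), 14 and 15 (Six4) and 13 (Six5), against a median of 9 over all windows. At least 1 CG was found in 94.2% of the windows.

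A promoter peak of H2AK119ub1 was listed at 3 of the 5 genes in wild type ES, where 6.69% of all protein-coding genes had one. The count was 4 in PCGF5-depleted ES (5.96% of all genes), 3 in wild type NPC (4.98%) and 2 in its PCGF5-depleted counterpart (4.17%). A promoter peak of H3K27me3 was listed at 4 genes in wild type ES (13.4% of all genes), 3 in PCGF5-depleted ES (12.9%), 3 in wild type NPC (15.7%) and 4 in its PCGF5-depleted counterpart (15.4%). Six3 and Six2 were among the genes counted in each histone list. Flag-PCGF5 was listed at 0 of the 5 promoters in ES (0.787% of all genes) and at 1, Six4, in NPC (13.7%). The fold enrichment of a peak is its pile-up of reads over local background as the peak caller gave it, within 1 library.

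**Figure D1:**
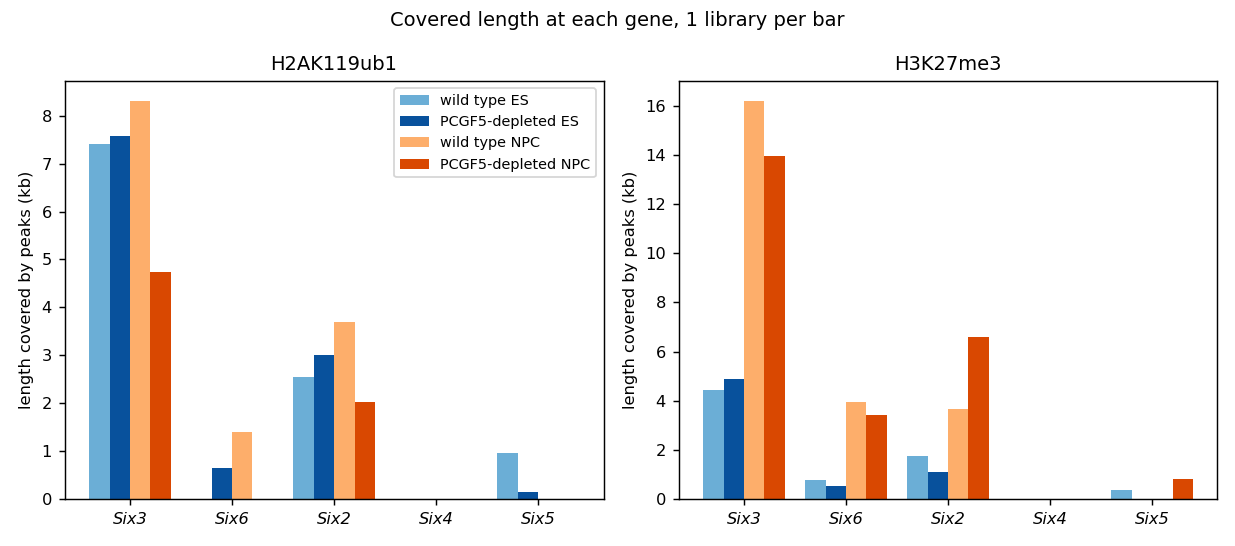
Summed length of the peaks at each gene (kb, linear axis from 0) for H2AK119ub1 on the left and H3K27me3 on the right, with 1 bar per library. Six3 has the longest bars in all 8 histone lists, its H3K27me3 bars of NPC reach 16201 and 13958 bp, and Six4 has none.

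Six3, a regulator of the eye field and forebrain, had the longest summed peak length of the 5 genes in every histone list. It is also the longest gene, at 18206 bp. Covered length over gene length was higher at Six2 in all 8 histone lists, for example 0.639 against 0.408 for H2AK119ub1 of wild type ES. Covered length includes peaks in the promoter windows, which reach beyond the gene, so this ratio runs higher at a short gene. It reached 1.66 at Six2 for H3K27me3 of PCGF5-depleted NPC. Inside the promoter windows the order varied by list. In wild type ES, H2AK119ub1 covered 55.5% of the windows at Six3 and 42.8% at Six2, and H3K27me3 covered 28.5% and 35.2%. At Six3, H2AK119ub1 peaks summed to 7422 bp in wild type ES (10 peaks), 7574 bp in PCGF5-depleted ES (14 peaks), 8311 bp in wild type NPC (20 peaks) and 4745 bp in PCGF5-depleted NPC (6 peaks). The first 3 lists thus lay close together and the list of PCGF5-depleted NPC stood below them. Ranked by covered length among all genes with a peak in the same list, Six3 was number 9 of 2405, 7 of 2211, 32 of 1394 and 8 of 1315, in the same order. H3K27me3 peaks summed to 4423 bp in wild type ES (10 peaks), 4884 bp in PCGF5-depleted ES (11 peaks), 16201 bp in wild type NPC (7 peaks) and 13958 bp in PCGF5-depleted NPC (15 peaks). Both NPC lists stood above both ES lists, and the ranks were 53 of 3763, 17 of 3617, 17 of 3924 and 15 of 3917.

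The form of the H3K27me3 domain at Six3 differed between the NPC lists more than its length did. In wild type NPC, 1 peak of 7256 bp covered chr17:86011316-86018571 and another of 4010 bp covered chr17:86020087-86024096. In PCGF5-depleted NPC the widest peak measured 2552 bp, and the wild type peaks were found again as a series of shorter ones. All 7 wild type peaks overlapped a peak of PCGF5-depleted NPC, and 68.7% of their bases were covered. The whole lists moved in the same way, where the mean peak width of 850 bp in wild type NPC stood beside 554 bp after depletion, and with 9.42% and 3.00% of peaks at 2000 bp or more. Peaks were called in each library separately, so depth and background can set where a domain breaks, and their part was not tested.

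Around its 3 start sites, Six3 had 10190 bp of promoter window. H2AK119ub1 covered 55.5% of it in wild type ES, 55.3% in PCGF5-depleted ES, 48.3% in wild type NPC and 26.7% in its PCGF5-depleted counterpart. H3K27me3 covered 28.5%, 35.5%, 91.6% and 68.4% of it in the same order. The largest H2AK119ub1 peaks at Six3 in ES were of like width and overlapped, 3196 bp in wild type and 3077 bp in PCGF5-depleted cells. The wild type one began 12 bp past the most downstream start, at 86020383, while the other began upstream, at 86019194. Fold enrichment of the H2AK119ub1 peaks ran from 4.30 to 7.89 in wild type ES, 2.81 to 5.32 in PCGF5-depleted ES, 2.84 to 6.94 in wild type NPC and 4.04 to 9.49 in its PCGF5-depleted counterpart. The fewest peaks, those of PCGF5-depleted NPC, thus included the highest fold. The whole H2AK119ub1 list of PCGF5-depleted NPC likewise had the fewest peaks, 3845, and the highest median fold, 4.91. The medians were 4.61 in wild type ES, 4.00 in PCGF5-depleted ES and 4.35 in wild type NPC.

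**Figure D2:**
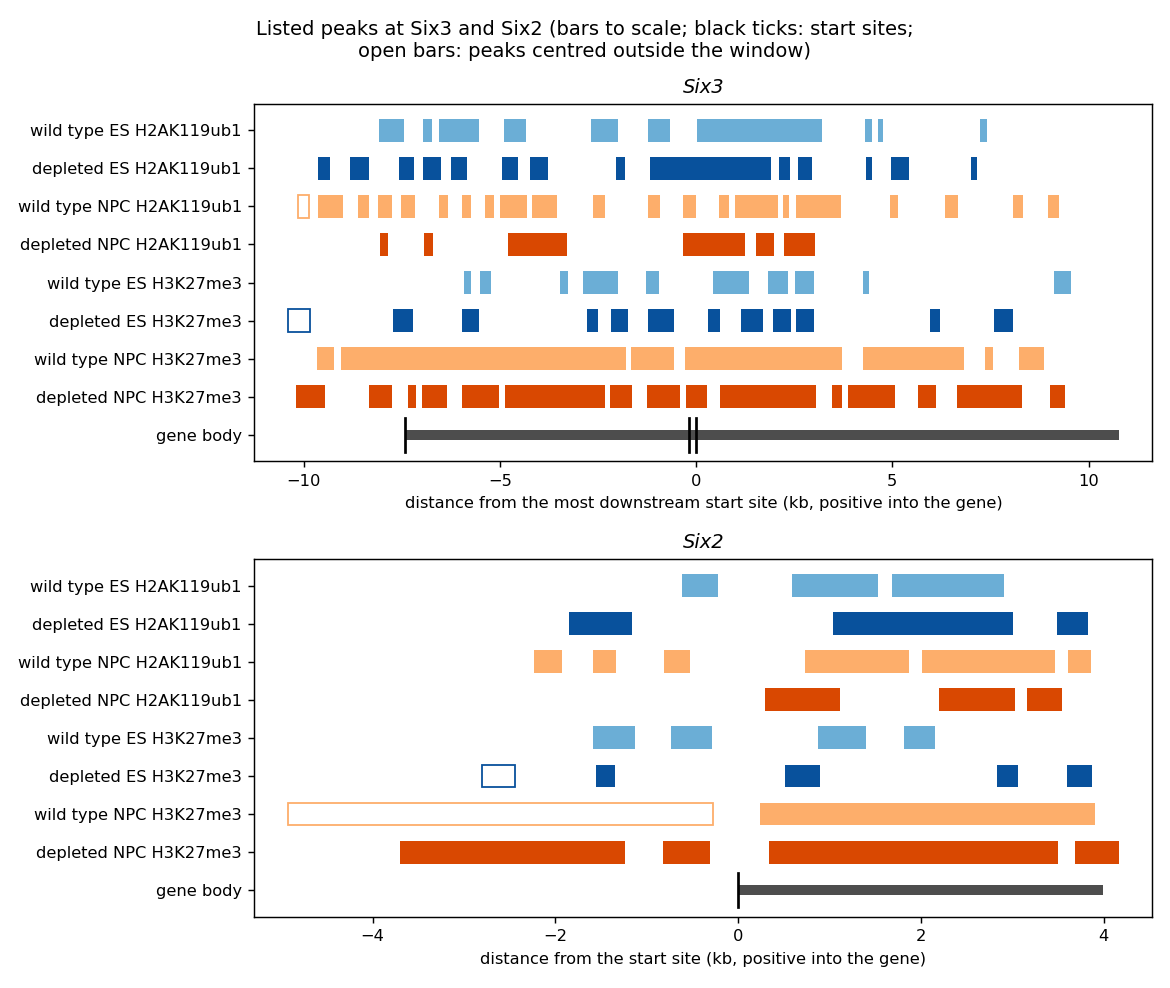
Position of each listed peak at Six3 (top) and Six2 (bottom) in the 8 histone lists, with the distance from a start site in kb on the horizontal axis and 1 row per library. Filled bars are counted peaks, open bars are peaks that touch the promoter window but are centred outside it, the grey bar is the gene body and black ticks are start sites. No filled or open bar crosses the Six2 start in any list, and the wide H3K27me3 bars of wild type NPC at Six3 are broken up in PCGF5-depleted NPC.

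Six2, the nephron progenitor factor, had the second longest coverage by H2AK119ub1 in all 4 lists. The summed length was 2548 bp in wild type ES (3 peaks), 3007 bp in PCGF5-depleted ES (3 peaks), 3704 bp in wild type NPC (6 peaks) and 2028 bp in PCGF5-depleted NPC (3 peaks). As at Six3, the value of PCGF5-depleted NPC was the lowest. H3K27me3 summed to 1761 bp in wild type ES (4 peaks), 1096 bp in PCGF5-depleted ES (4 peaks), 3663 bp in wild type NPC (1 peak) and 6609 bp in PCGF5-depleted NPC (4 peaks). The low value of wild type NPC follows from the rule on centres. A further peak of 4654 bp and 9.63-fold enrichment, chr17:86087870-86092523, began 276 bp upstream of the start and was centred outside the window. Counted by bases inside the window, H3K27me3 covered 35.2% in wild type ES, 13.1% in PCGF5-depleted ES, 89.7% in wild type NPC and 78.6% in its PCGF5-depleted counterpart, so the order of the NPC lists turned.

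The start of Six2 lay outside every peak. The nearest edge of an H2AK119ub1 peak was 226 bp away in wild type ES, 1033 bp in PCGF5-depleted ES, 524 bp in wild type NPC and 292 bp in its PCGF5-depleted counterpart. For H3K27me3 these distances were 292, 507, 241 and 311 bp. The gap was thus present with both marks, at both stages and in both genotypes, and the sequence shown above is its upstream part, with 10.2 CG per 100 bases. Histone libraries were made from chromatin cut by micrococcal nuclease, which removes DNA outside nucleosomes, and the part of this step in the gap was not tested. The Six3 starts had no such common gap. Its start at 86020183 was inside a peak in 5 of the 8 histone lists. The Six5 start also lay outside every peak, with the nearest edge 142 bp away, in H2AK119ub1 of wild type ES. How many other marked genes have an uncovered start was not counted.

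Between Six3 and Six2, peaks covered little of the 52454 bp. H2AK119ub1 covered 2.48% in wild type ES, 1.38% in PCGF5-depleted ES, 4.64% in wild type NPC and 0% in its PCGF5-depleted counterpart, where no peak was listed. H3K27me3 covered 1.51%, 1.65%, 8.90% and 5.93% in the same order. The longest peak there, 3240 bp of H3K27me3 in wild type NPC, ended 113 bp from the end of Six2. The segment that the most lists shared was 118 bp long and was listed in 5 of the 8, both H2AK119ub1 lists of ES, the H3K27me3 list of wild type ES and both H3K27me3 lists of NPC. It is shown because its sequence differs in kind from the segments within the genes.
Between Six3 and Six2, plus strand, chr17:86037953-86038070: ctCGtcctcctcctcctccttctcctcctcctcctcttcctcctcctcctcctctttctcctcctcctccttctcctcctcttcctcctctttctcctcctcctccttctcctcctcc
Of its 118 bases, 117 were C or T, and it held 1 CG. Windows of the same length with as many pyrimidines on one strand made up 0.159% of the genome. The fold enrichment of the peaks there ran from 5.08 to 6.90. Of the 149 histone peaks at the 5 genes themselves, 0 were centred on such a window.

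Six6, which acts in the retina and pituitary, differed between lists by presence and absence of H2AK119ub1. No H2AK119ub1 peak was listed in wild type ES, 3 peaks summing to 645 bp in PCGF5-depleted ES, 5 peaks summing to 1402 bp in wild type NPC, and none in PCGF5-depleted NPC. The direction of the difference between PCGF5-depleted and wild type cells was therefore opposite in ES and in NPC. H3K27me3 was listed in all 4, with 757 bp in wild type ES, 530 bp in PCGF5-depleted ES, 3965 bp in wild type NPC and 3433 bp in its PCGF5-depleted counterpart. The NPC lists stood well above the ES lists. In wild type NPC 1 peak of 2971 bp, chr12:74040003-74042973, ran across the start with the highest fold enrichment of any peak at the 5 genes, 10.5. In PCGF5-depleted NPC the same stretch was overlapped by 3 peaks with folds of 3.38 to 5.23. The start base was inside a peak in the H3K27me3 lists of both NPC groups and in no other list.

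Six5, which lies beside Dmpk, had few and short peaks. H2AK119ub1 peaks summed to 965 bp in wild type ES (3 peaks) and 140 bp in PCGF5-depleted ES (1 peak), and none was listed in either NPC group. H3K27me3 was listed as 1 peak of 373 bp in wild type ES and as 2 peaks summing to 797 bp in PCGF5-depleted NPC, and in neither of the other lists. The only peak in the upper 15% of its list by score was the H2AK119ub1 peak of wild type ES at chr7:19681618-19682178, at the 88.0th percentile with 6.34-fold enrichment. The H3K27me3 peaks of Six5 all lay in the lower 25%, with percentiles of 14.1, 24.0 and 3.81. No base of Six5 was inside a peak in more than 3 lists.

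Six4, the relative of Six5, had no peak of H2AK119ub1 or H3K27me3 in any of the 8 histone lists, within its 5170 bp of promoter window or over its body of 13156 bp. It alone had a Flag-PCGF5 peak, 499 bp wide and centred 6 bp upstream of a start, in NPC. Its fold enrichment of 2.05 was below the list median of 2.22, and its score lay at the 38.9th percentile of 12013 peaks. The ES list held 653 peaks, and none lay at these genes. At Six2, Six3, Six5 and Six6 no Flag-PCGF5 peak was listed at either stage, although all 4 had peaks of both histone marks in some list. An absent peak says that the signal did not pass the caller's threshold in that library, and with the depth unknown no upper limit can be given.

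**Figure D3:**
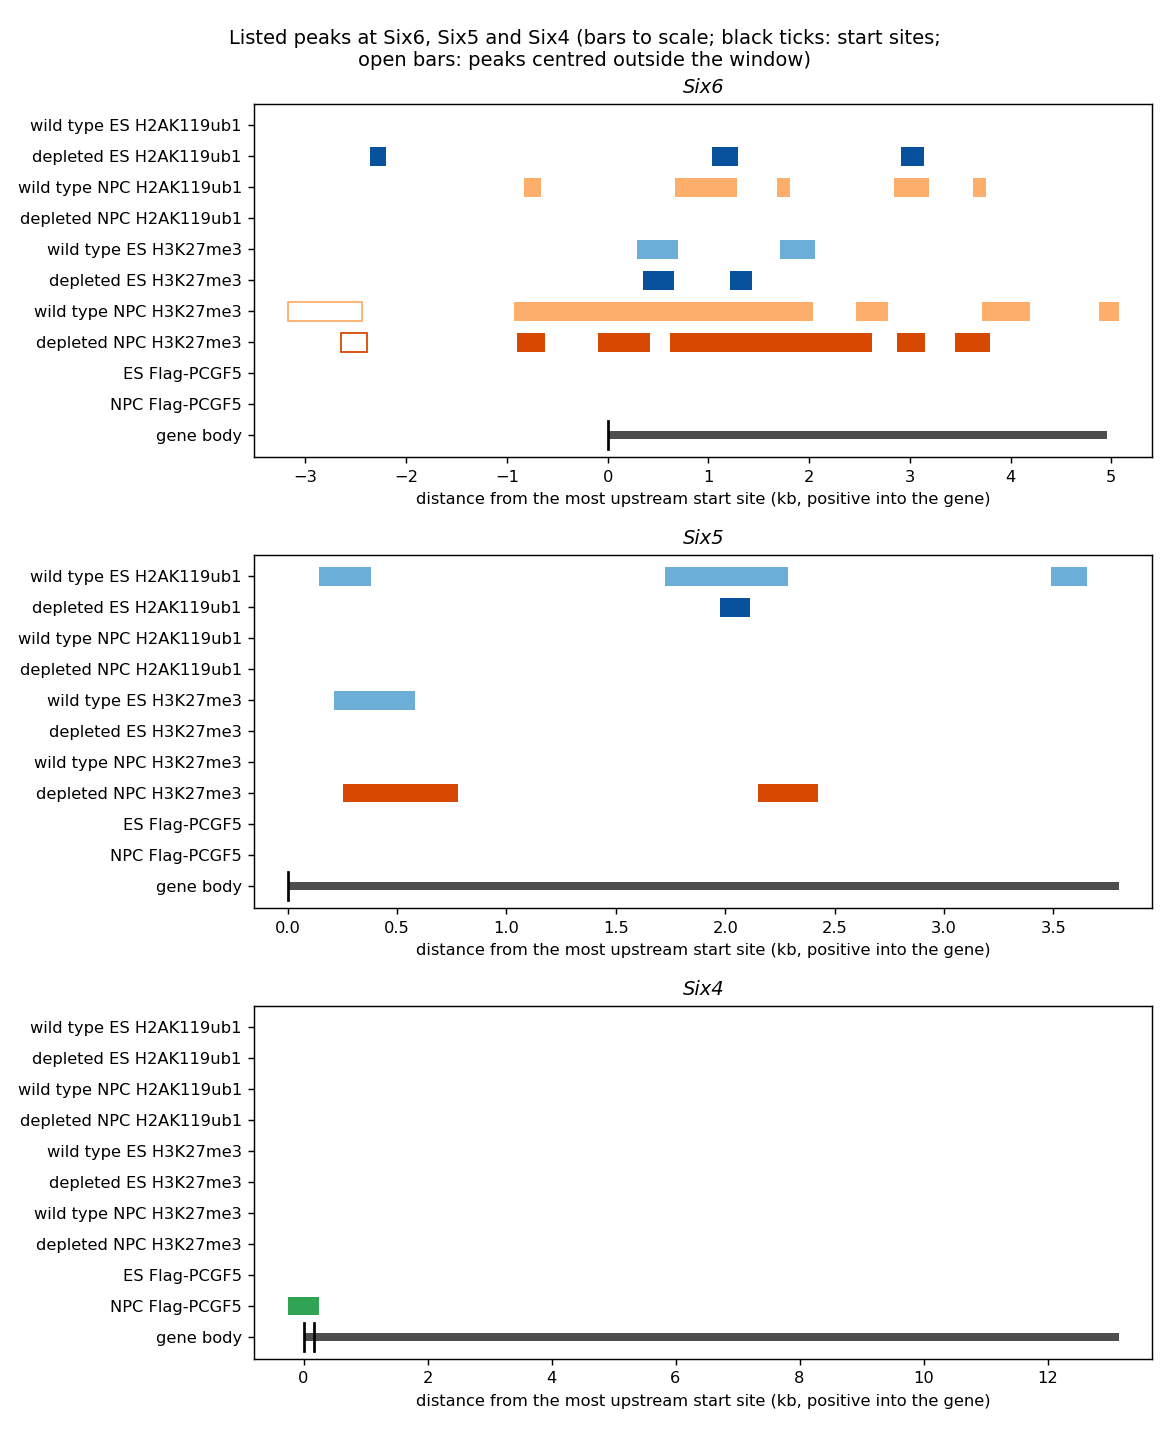
Position of each listed peak at Six6, Six5 and Six4 in all 10 lists, with the distance from the most upstream start site in kb on the horizontal axis and 1 row per library. Bars, grey gene bodies and black ticks have the same meaning as in the plot of Six3 and Six2 peaks. Six6 has wide H3K27me3 bars in NPC, Six5 has a few short bars, and the only bar at Six4 is the Flag-PCGF5 peak of NPC at the start.

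PCGF5-depleted lists were compared with wild type lists at each stage. The paper reports that neural differentiation gave fewer cells positive for the reporter of neural fate from PCGF5-deficient than from wild type cells. The NPC lists of the genotypes can therefore differ in cell state as well as in PCGF5, and the part of cell state was not tested. In NPC, H2AK119ub1 was shorter at all 3 genes that had it. Six3 had 0.571 and Six2 0.548 of the wild type length, and Six6 had no peak. Together the genes had 6773 bp in PCGF5-depleted and 13417 bp in wild type NPC, a ratio of 0.505, and the whole list was shorter too, with a ratio of 0.482. A difference of at least 2-fold, counting genes with peaks in 1 list only, was seen downward at 1 of the 3 genes with a peak, Six6, against 47.8% of all genes with a peak in either list, and upward at 0, against 34.6%. In ES the summed H2AK119ub1 length differed little, 11366 against 10935 bp, with Six6 past 2-fold upward (33.2% of all genes) and Six5 downward (43.5%). The shares past 2-fold were thus not above those of all genes.

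Covered length of H3K27me3 differed little between PCGF5-depleted and wild type cells when summed over the genes at each stage. In ES the sum was 6510 against 7314 bp, with 0 genes higher by 2-fold (27.7% of all genes) and Six5 lower (35.0%). In NPC it was 24797 against 23829 bp, with Six5 higher (24.6%) and 0 genes lower (33.3%). The number of H3K27me3 peaks in NPC was 26 in PCGF5-depleted and 12 in wild type cells, with a mean width of 954 and 1986 bp. Six2 and Six5 had more length in PCGF5-depleted NPC, and Six3 and Six6 had less. Without the rule on centres the direction at Six2 turned, as given above.

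NPC lists were compared with ES lists in each genotype. For PCGF5-depleted cells, NPC names the culture after neural differentiation, which the paper reports to be inhibited without PCGF5. H3K27me3 was longer in NPC by at least 2-fold at Six3, Six6 and Six2 in wild type cells, or 3 of the 4 genes with a peak, where 53.3% of all genes with a peak passed that fold, and Six5 passed it downward (27.4%). The ratios were 3.66 at Six3, 5.24 at Six6 and 2.08 at Six2. The Six2 value leaves out the 4654 bp peak of wild type NPC that was centred outside the window. Counting any base, the difference at Six2 between NPC and ES rose from 1902 to 6556 bp in wild type cells and went from 5513 to 5143 bp in PCGF5-depleted cells, so the order of the genotypes turned. In PCGF5-depleted cells all 4 genes with a peak were higher (52.4% of all genes) and 0 lower (23.8%), with ratios of 2.86 at Six3, 6.48 at Six6 and 6.03 at Six2, and with Six5 listed in NPC only. The whole lists lengthened too, by ratios of 2.24 in wild type and 2.13 in PCGF5-depleted cells, while the 5 genes together gave 3.26 and 3.81. The order of these last ratios turned with the rule for counting peaks. On the log2 scale they were 1.70 and 1.93, against 2.00 and 1.75 when any base counted and 2.94 and 2.13 with the higher-scoring 50% of each list. H2AK119ub1 did not follow. In wild type cells Six6 was higher (28.0% of all genes) and Six5 lower (61.0%), and the sum changed by a ratio of 1.23. In PCGF5-depleted cells 0 genes were higher (22.5%), Six6 and Six5 were lower (60.4%), and the ratio was 0.596. Comparisons between stages and between genotypes share lists, so they are not independent of each other.

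**Figure D4:**
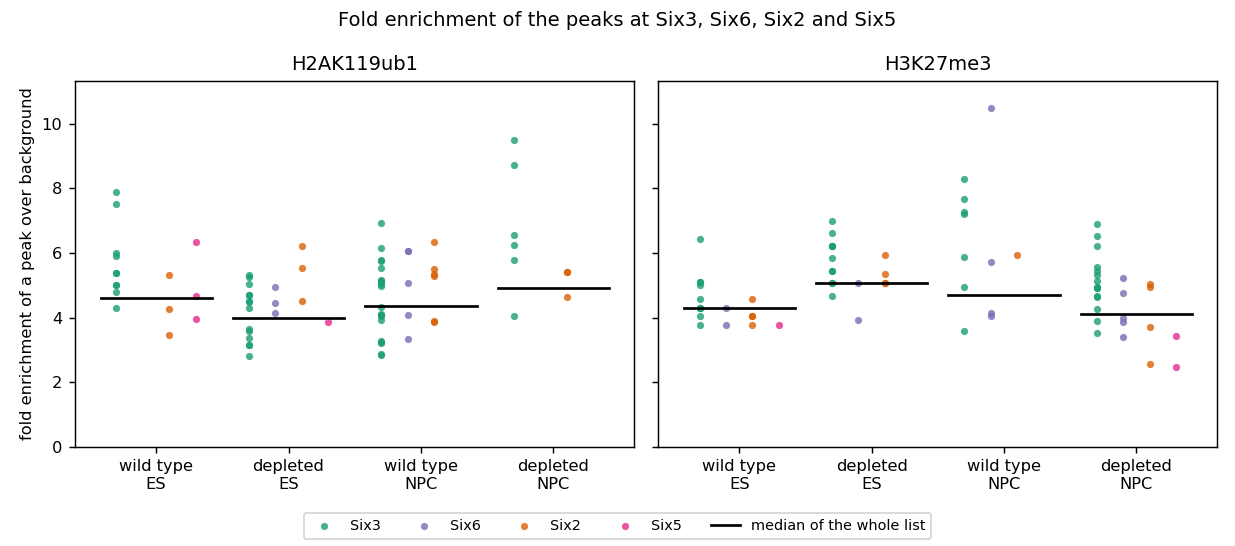
Fold enrichment over background (linear axis from 0) of each histone peak at Six3, Six6, Six2 and Six5, by library, for H2AK119ub1 on the left and H3K27me3 on the right. Each point is 1 peak, and the black line is the median of all peaks in that list. Points lie on both sides of the line in most lists, and the highest is the H3K27me3 peak at 10.5 at Six6 in wild type NPC.

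Whether the same places were marked was asked by counting wild type peaks overlapped by at least 1 bp in the PCGF5-depleted list. For H2AK119ub1, 11 of 16 peaks at the 5 genes were found again in ES (68.8%) and 10 of 31 in NPC (32.3%). The whole lists gave 25.2% and 26.0%. For H3K27me3, 9 of 17 were found again in ES (52.9%) and 11 of 12 in NPC (91.7%), where the whole lists gave 35.1% and 58.5%. Wide peaks overlap more easily than narrow ones, and the peaks at the 5 genes were wider than those of the lists. The mean width in wild type ES was 683 bp for H2AK119ub1 at the 5 genes and 287 bp in the list.

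The overlap of both marks at the 5 genes was larger in NPC than in ES. H3K27me3 itself covered more there in NPC, which makes an overlap easier, and the part of this was not tested. It covered 23829 bp in NPC and 7314 bp in ES of wild type cells, and 24797 and 6510 bp in PCGF5-depleted cells. In wild type ES 9 of 16 H2AK119ub1 peaks were overlapped by H3K27me3 (56.3%), and in PCGF5-depleted ES 10 of 21 were (47.6%). Among NPC the count was 29 of 31 for wild type (93.5%) and 9 of 9 for PCGF5-depleted cells (100%). The whole lists rose as well, from 38.8% and 27.6% in ES to 81.3% and 74.5% in NPC. At Six2 all H2AK119ub1 peaks were overlapped in all 4 groups. At Six3 the counts were 5 of 10, 6 of 14, 19 of 20 and 6 of 6.

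Likeness of pattern was measured as the Euclidean distance of log2 (covered bp + 1) over the 8 histone lists, for the 4 genes with peaks in at least 3 of them. The genes most like Six3 were the homeobox genes Uncx (distance 0.756) and Hmx1 (0.758). Uncx had 6397, 7012, 10179 and 4195 bp of H2AK119ub1 in the order of the lists above, next to 7422, 7574, 8311 and 4745 bp at Six3. The genes most like Six2 were Olig2 (1.12), a factor of motor neuron and oligodendrocyte precursors, and Nkx2-1 (1.28), a homeobox factor of the ventral forebrain, lung and thyroid. Those most like Six6 were Tmeff2 (1.76) and Ikzf3 (1.79), and those most like Six5 were Trim29 (1.82) and Slc26a11 (2.46). Within the family, Six3 and Six2 were nearest to each other (4.38), and the distances of all other pairs were 16.1 to 27.1. A list in which a single gene of a pair has a peak adds much to this distance. Of the genes compared, only Six3 and Six2 had peaks in all 8 lists. The larger distances of the other pairs thus follow largely from absent peaks.

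Eya and Dach proteins are cofactors of this family, and Groucho proteins are corepressors that some of its members recruit. Among the 6 Eya and Dach cofactors, H3K27me3 was at the promoter of 1 in wild type ES, 2 in PCGF5-depleted ES, 2 in wild type NPC and 3 in its PCGF5-depleted counterpart, with Eya4 in each list and Dach1 in all but the first. The shares of all genes in these lists were 13.4%, 12.9%, 15.7% and 15.4%. H2AK119ub1 was at Eya4 alone, in both wild type lists (6.69% of all genes in ES and 4.98% in NPC). Among the 4 Groucho corepressors, H3K27me3 was at 1 in NPC of both genotypes, Tle2, and at 0 in ES, while H2AK119ub1 was at Tle2 in wild type ES and at 0 in the other lists. Flag-PCGF5 was at 2 cofactors in NPC, Dach1 and Dach2, and at 2 corepressors, Tle2 and Tle4, where 13.7% of all genes had a promoter peak. The median covered length of H3K27me3 was 0 bp in wild type NPC for both lists.

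Nephron progenitor factors are the genes that act beside Six2 in the developing kidney. Of 7 such genes, H2AK119ub1 was at 4, 4, 5 and 3 promoters in the order of the lists above and H3K27me3 at 4, 4, 6 and 5, with Osr1, Pax2 and Gdnf in each of these lists. The shares of all genes with a promoter peak were 6.69%, 5.96%, 4.98% and 4.17% for H2AK119ub1. For H3K27me3 they were 13.4%, 12.9%, 15.7% and 15.4%. Of 7 genes used in nearly all cells, H3K27me3 was at 0 in each list, and H2AK119ub1 at 2, Rplp0 and Eef1a1, in PCGF5-depleted ES only.

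The labelled cell types could not be checked by expression, since the lists hold repressive marks. Of 6 pluripotency genes, H3K27me3 was at the promoter of 1 in wild type ES and 4 in wild type NPC (Zfp42, Esrrb, Klf4 and Tdgf1), and at 1 and 2 in PCGF5-depleted cells. Of 6 mesoderm and endoderm factors it was at 6, 5, 6 and 6 in the order of the lists above. The shares of all genes with an H3K27me3 promoter peak were 13.4%, 12.9%, 15.7% and 15.4% in the same order. Sox1 was also on the neural precursor list but was absent from the protein-coding genes used. At the 5 neural precursor genes analysed, H2AK119ub1 was listed at 2, 3, 1 and 4 promoters. The shares of all genes were 6.69%, 5.96%, 4.98% and 4.17%. H3K27me3 was at 3, 3, 3 and 4 of these 5 genes. In wild type NPC, H3K27me3 was at Nes, Pax6 and Pou3f2 and was not listed at Cdh2 or Fabp7. Some genes known to be active in neural precursors were thus not free of H3K27me3 in NPC. The part of mixed cell types in this was not tested. The same holds for the marks at the 5 genes, since a peak in a mixed culture does not say in which cells it lies.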

How the data were processed

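Peak lists of 10 ChIP-seq libraries were used, and groups came from the labels. Per the methods of the study, histone chromatin was digested with micrococcal nuclease and lightly fixed, and Flag chromatin was doubly fixed and sonicated. The authors dropped reads under 36 bp with Trimmomatic, used Bowtie2 for alignment to mm9 and Picard against duplicates, and called peaks per library with MACS2 2.1.0. Aligner versions are not given in the sources used here. The deposited columns are a score, a fold enrichment over background, and the −log10 p-value and −log10 q-value, all from the peak caller of the authors. The deposited score equals 10 times the −log10 p-value (histone) or −log10 q-value (Flag). The Drosophila spike-in does not enter the lists, and depth is unknown.

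All 86279 peaks lay within NCBIM37 chromosome lengths. Peaks were assigned to genes in Python 3.11.15 with scripts tested on simulated peaks. A percentile is a rank by score within a list. No test was made, with 1 library per group. The genes named are the 5 members, the 2 genes most like each, genes sharing a peak and fixed lists, of which the eye field and forebrain list is not reported here. Members and lists were chosen with earlier results of these data known. Alternatives were other windows, overlap rules, score and q-value thresholds, equal list lengths and merged peaks.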

Additional observations from a re-analysis of the deposited data

Results flagged for a closer look

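For several genes the covered length differed between PCGF5-depleted and wild type cells in opposite directions at the ES and NPC stages. With 1 library per group this difference between stages was not tested. For H2AK119ub1, PCGF5-depleted minus wild type was 152 bp in ES and -3566 bp in NPC at Six3, 645 and -1402 bp at Six6, 459 and -1676 bp at Six2, and 431 and -6644 bp over all 5 genes. The whole H2AK119ub1 lists had a ratio of 0.841 in ES and 0.482 in NPC. The ES differences of Six3 and Six2 changed sign under other settings, while the NPC differences of both kept theirs.

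For H3K27me3 the difference was 461 bp in ES and -2243 bp in NPC at Six3, -665 and 2946 bp at Six2, -373 and 797 bp at Six5, and -804 and 968 bp over all 5 genes. At Six2 the NPC value rests on a wide peak of wild type NPC that was centred outside the promoter window, and it was -1708 bp when any base of a peak inside the window counted.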

How the results depend on the processing

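Settings changed direction where differences were small. The log2 ratio of covered length at the 5 genes, PCGF5-depleted over wild type, was 0.06 for H2AK119ub1 in ES and became -0.17 with a window of 1000 bp, -0.049 with the higher-scoring 50% of each list, -0.14 with promoter peaks alone and -0.042 by bases inside the promoter windows, a setting added after the data were seen. For H3K27me3 in ES it was -0.17 and became 0.024 when any base of a peak counted and 0.63 with the higher-scoring 50%. For H3K27me3 in NPC it was 0.06 and became -0.22 when any base counted, -0.12 with a window of 1000 bp, -0.18 with the higher-scoring 50%, -0.18 with promoter peaks alone, -0.038 with equal list lengths and -0.22 by bases inside the windows. For H2AK119ub1 in NPC it was -0.99 and kept its direction under all 7 settings. For NPC over ES, H2AK119ub1 of wild type cells gave 0.30 and became -0.33 with promoter peaks alone and -0.047 by bases inside the windows. In PCGF5-depleted cells it was -0.75 and became -1.42 with promoter peaks alone. H3K27me3 of wild type cells gave 1.70 and became 2.94 with the higher-scoring 50%, and H3K27me3 was higher in NPC under all settings in both genotypes. Single genes changed sign in 10 cases. For H2AK119ub1 at Six3 the ES difference of 152 bp became -631, -1026 and -581 bp with a window of 1000 bp, the higher-scoring 50% and equal list lengths, and the NPC minus ES difference of 889 bp in wild type cells became -23, -1189 and -656 bp. At Six2 the ES difference for H2AK119ub1 became -237 bp with a window of 1000 bp, that for H3K27me3 became 163 bp with the higher-scoring 50%, and the NPC one became -1708 bp when any base counted. At Six6 that for H3K27me3 in ES became 309 bp with the higher-scoring 50%. Genes with a promoter peak fell from 4 to 1 for H2AK119ub1 of PCGF5-depleted ES with a window of 1000 bp, from 4 to 2 for H3K27me3 of wild type ES and from 1 to 0 for Flag-PCGF5 in NPC, both with the higher-scoring 50%, and the last also with equal list lengths. When 50% of a peak had to be overlapped, 43.8% of H2AK119ub1 peaks in ES and 58.3% of H3K27me3 peaks in NPC were found again. Merging peaks within 1000 bp left 8, 10, 10 and 5 of the 16, 21, 31 and 9 H2AK119ub1 peaks, and 10, 9, 3 and 6 of the 17, 17, 12 and 26 H3K27me3 peaks. With 1 library per group, nothing here measures biological error, and the unknown depth limits every absent peak. No paired analysis was possible because each group had 1 library and no test was made.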

Other observations

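The pyrimidine segment between Six3 and Six2 led to a count of like sequence in all lists, chosen after its letters were seen. Windows of 118 bp at the peak centre with at least 117 pyrimidines on one strand made up 1.18% of the H2AK119ub1 peaks of wild type ES and 6.00% of those of PCGF5-depleted ES. In NPC these shares were 0.539% and 4.08%. For H3K27me3 the ES shares were 0.711% and 0.606% and the NPC shares 1.57% and 0.617%, and for Flag-PCGF5 in NPC the share was 0.183%. Such windows made up 0.159% of the genome. Both H2AK119ub1 lists of PCGF5-depleted cells thus held more of them than the wild type lists of the same stage, while the H3K27me3 lists of the same cells did not.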
